A study of Mus musculus with 4 samples.

Results

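The genes described here carry names that RIKEN gave to cDNA clones from mouse testis libraries, and they were expressed in fetal lung. They were chosen by name and by level. The name ended in Rik and began with 1700 or with the same 4 digits as 4921536K21Rik, 4930565N06Rik, 4931417G12Rik, 4932425I24Rik or 4933404M02Rik, and the average of the 4 libraries had to reach 0.5 FPKM. FPKM is a read count divided by the length of the transcript and by the mapped reads of the library. Of 706 rows with such a name among the 22556 rows of the table, 171 met the minimum. The other 535 fell short of it, and 271 of these were at 0 in every library. The 3 genes just inside the minimum had means of 0.521 (1700015E13Rik), 0.527 (4930565N06Rik) and 0.53 FPKM (1700001G17Rik), and the 3 just outside had 0.479 (4921536K21Rik), 0.474 (4930405A21Rik) and 0.473 FPKM (1700020N18Rik). In 161 of the 171 genes the mean reached 0.5 FPKM in both genotypes, whereas 5 genes met the minimum through Control alone and 5 through Shh-Stk11 alone.

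The RNA came from whole mouse lungs at embryonic day 16.5, from 2 genotypes with 2 libraries each, written Control 1, Control 2, Shh-Stk11 1 and Shh-Stk11 2. Control embryos were Shh-Cre; Stk11F/+, so that they too carried the driver and 1 floxed allele, and Shh-Stk11 embryos were Shh-Cre; Stk11F/F. Shh-Cre acts in endoderm and so in the epithelium of the lung, and the other cells of the organ kept Stk11, which encodes a serine/threonine kinase. The labels gave the strain as C57BL/6, the methods of the study described a mixed background, and neither gave sex, litter or whether an animal was pooled. In a whole organ, fewer cells of a type and less RNA per cell cannot be told apart.

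The low values of the table corresponded to between 30.9 M and 38.1 M reads per library. Stk11 itself was at 43.99 and 45.5 FPKM in Control and at 29.47 and 25.95 FPKM in Shh-Stk11. Its log2 fold change was -0.69 ± 0.13 (SE) with a limma adjusted p of 0.0499. Xist stood at 0.239 FPKM and the Y-linked Ddx3y at 23.5 FPKM in Shh-Stk11 2, whereas Ddx3y was at or near 0 in the other 3 libraries, so that this library differed in sex from the rest.

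Motile cilia are whip-like organelles built on an axoneme of microtubule doublets with dynein arms, radial spokes and a central pair. In the airway they are carried by multiciliated cells and move mucus. The sperm tail has the same axonemal core, and many genes of the axoneme were first met as testis cDNAs. The forkhead factor FOXJ1 and the RFX factors switch on this set of genes, and RFX proteins bind the X-box, an inverted repeat that often lies near the start of cilium genes. The question asked here was which of the testis clone genes fell as known motile cilium genes did. A list of 167 motile cilium genes was used as the reference, from which every testis clone gene was taken out. Those taken out were Cfap206, Maats1, Lrrc71, Ccdc173, Cfap61 and Dnaaf6, whose values are given below. The list genes 6030429G01Rik, A330021E22Rik and E030019B06Rik stayed in it and were also counted among the genes with other RIKEN clone names.

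Many of the reference genes were lower in the lungs without epithelial Stk11. Of the 128 list genes with at least 0.5 FPKM, 64 (50%) were lower with a limma adjusted p under 0.05 over all 13770 genes tested, and 0 were higher, with 1 higher at an unadjusted p under 0.05. That gene was Rfx3, an RFX factor, with a log2 fold change of 0.69. Their median log2 fold change was -1.22, against -0.05 over all genes tested. Foxj1 was at 16.13 and 15.39 FPKM in Control and at 4.765 and 4.714 FPKM in Shh-Stk11, a log2 fold change of -1.71 ± 0.13 (SE, adjusted p = 0.00329). The upper quartile of the list, a log2 fold change of -0.76 or 58.9% of Control on the log2(FPKM + 0.1) scale, was taken as the limit of a cilium-like fall. That limit and the fold changes compared with it come from the same libraries, so a gene's place beside it is a description.

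Among the 171 testis clone genes, 17 were lower with an adjusted p under 0.05, which is 9.94% of them. Over all genes tested the share was 1.29%. Without a minimum on FPKM, limma called 0 of the 17, with adjusted p-values from 0.146 to 0.319. All 17 also lay at or below the cilium limit, as did 174 of the 178 genes called lower over all genes tested. The limit thus added little to the call, and 1.26% of all genes tested met both. By limma, 0 clone genes were higher with an adjusted p under 0.05, against 0.98% of all genes tested, and 12 (7.02%) were higher at an unadjusted p under 0.05, against 8.04%. At an unadjusted p under 0.05, 36 clone genes (21.1%) were lower, against 7.18%. Whatever their p, 30 clone genes (17.5%) lay at or below the limit, against 3.59%. The lower Control value exceeded the higher Shh-Stk11 value in 66 clone genes (38.6%, against 27.6% of all genes tested), and the reverse held in 31 (18.1%, against 19.2%). The median log2 fold change over the 171 genes was -0.10, and over the 141 genes above the limit it was -0.04. The fall was thus found in a minority of the clone genes. Among 721 genes with other RIKEN clone names, 9 (1.25%) were lower and 7 (0.971%) were higher.

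**Figure D1:**
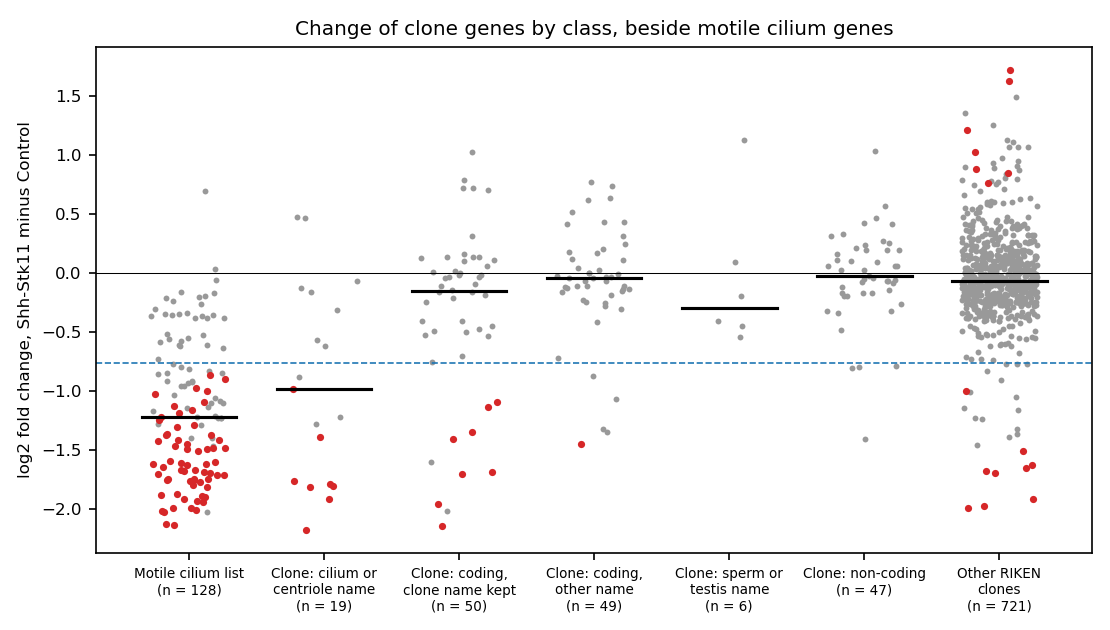
Log2 fold change of Shh-Stk11 minus Control (vertical axis) for the motile cilium list, for the testis clone genes by class and for other RIKEN clone genes; each point is a gene, red points have a limma adjusted p under 0.05, black bars are medians and the dashed line is the cilium limit of -0.76. The clone genes with a cilium or centriole name have a median of -0.98, close to the -1.22 of the list, and the 47 non-coding clone genes have a median of -0.02.

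Promoter sequence was not used to choose the genes. RefSeq promoter windows, from 250 bases before to 50 bases after each start on GRCm38.p6, were searched on both strands for GTTGCC, the core that RFX factors recognise, and for the X-box dyad, the arms GTNNCC and GGNNAC in this order with a spacer of 1 to 3 bases. A dyad can contain the core, so the matches overlap. A window was at hand for 13 of the 17 lower genes, all but 1700024G13Rik, 1700019L03Rik, 1700016K19Rik and 1700007G11Rik. GTTGCC was found in 8 of the 13 (61.5%), against 47.7% of the motile cilium list, 21% of the 141 clone genes above the limit (119 with a window), 12.4% of the other RIKEN clone genes and 15% of all genes tested. The dyad was found in 5 of the 13 (38.5%), against 20.6%, 15.1%, 4.7% and 5.06% in the same order. The clone genes at or below the limit that missed the test were nearer to all genes tested, with GTTGCC in 2 of 12 (16.7%) and the dyad in 1 of 12 (8.33%). Over all 32851 windows of the collection, 12.5% held GTTGCC and 3.49% held the dyad. A forkhead core, TGTTTAC, was found in 1 of the 13 (7.69%), against 3.16% of all genes tested. A match of letters does not show that a factor was bound.

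The 5 promoters with a dyad and the 2 with GTTGCC that belong to the larger falls are shown for 60 bases each, 5′ to 3′ on the strand of the gene, with the matches of the core (on either strand) and of the dyad in capitals.
Fam166c (1700001C02Rik), chr5:30466013-30466072, plus strand: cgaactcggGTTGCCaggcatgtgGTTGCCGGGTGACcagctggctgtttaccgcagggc
Pifo (1700027A23Rik), chr3:106001498-106001557, minus strand: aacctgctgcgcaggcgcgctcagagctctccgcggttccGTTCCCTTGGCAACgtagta
Cfap126 (1700009P17Rik), chr1:171122940-171122999, plus strand: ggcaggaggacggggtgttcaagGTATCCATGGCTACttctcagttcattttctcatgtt
Cfap206 (1700003M02Rik), chr4:34730207-34730266, minus strand: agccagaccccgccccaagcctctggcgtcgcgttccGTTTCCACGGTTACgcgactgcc
1700001L19Rik, chr13:68597379-68597438, plus strand: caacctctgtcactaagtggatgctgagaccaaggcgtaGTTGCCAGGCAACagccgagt
1700012B09Rik, chr9:14771076-14771135, minus strand: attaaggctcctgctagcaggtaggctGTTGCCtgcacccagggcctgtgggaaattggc
Cfap161 (1700026D08Rik), chr7:83794873-83794932, minus strand: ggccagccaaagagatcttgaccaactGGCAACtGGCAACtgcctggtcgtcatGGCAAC

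In Fam166c the forkhead core lies in the same stretch, after the dyad, and in Cfap161 the core occurs 3 times on the opposite strand. The letters were not particular to genes that fell. Of the 119 clone genes above the limit with a window, 18 held the dyad, among them 1700010I14Rik, 1700030K09Rik and Map10 (4933403G14Rik), whose log2 fold changes were 0.06, -0.10 and -0.0018.

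**Figure D2:**
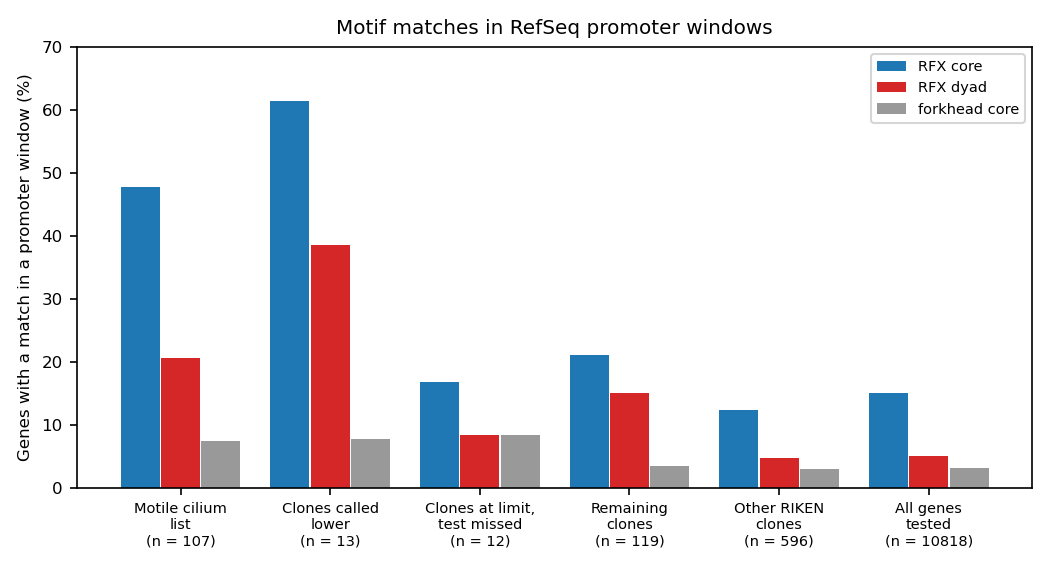
Share of genes (vertical axis, percent) with at least 1 match of the RFX core GTTGCC, the RFX dyad or the forkhead core TGTTTAC in their RefSeq promoter windows; n is the number of genes with a window. The core stands at 61.5% of the lower clone genes and 47.7% of the motile cilium list, against 15% of all genes tested.

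Of the 17 lower genes, 8 now carry a name of a cilium or centriole gene, with Spaca9, a sperm name, counted among them for its place in the axoneme. Fam166c (1700001C02Rik), whose product lies inside the doublet microtubules, was at 5.878 and 6.835 FPKM in Control and at 1.284 and 1.37 FPKM in Shh-Stk11. This was the largest fall among the 171 genes, a log2 fold change of -2.17 ± 0.17 (SE, adjusted p = 0.00419), with both Shh-Stk11 libraries far below both Control libraries. Cfap161 (1700026D08Rik), another protein of the doublet lumen, was at 8.884 and 9.517 FPKM in Control and at 2.264 and 2.461 FPKM in Shh-Stk11 (-1.92 ± 0.15). Spaca9 (1700026L06Rik), also a protein of the lumen and known from the sperm acrosome, was at 6.341 and 8.055 FPKM in Control and at 3.564 and 3.567 FPKM in Shh-Stk11. Its log2 fold change of -0.98 ± 0.17 was the smallest of the 17, with the largest adjusted p (0.0408), and its call was lost in 12 of 16 alternatives (adjusted p up to 0.302).

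Cfap126 (1700009P17Rik), known as Flattop and needed for the placing of basal bodies, had the highest level of the 17. It was at 18.31 and 21.28 FPKM in Control and at 5.64 and 5.526 FPKM in Shh-Stk11 (-1.80 ± 0.14). Pifo (1700027A23Rik), or Pitchfork, a protein of the ciliary base, was at 14.42 and 17.61 FPKM in Control and at 4.668 and 4.29 FPKM in Shh-Stk11 (-1.81 ± 0.15). Both genes kept a similar share of their Control level, 28.2% for Cfap126 and 28% for Pifo, close to the 30.1% of Foxj1.

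Cfap206 (1700003M02Rik) encodes a protein at the base of a radial spoke. It was at 10.1 and 10.82 FPKM in Control and at 3.283 and 2.768 FPKM in Shh-Stk11 (-1.76 ± 0.15). Cfap157 (1700019L03Rik), which is needed for the sperm tail, was the lowest of the 17, at 1.956 and 2.071 FPKM in Control and at 0.4618 and 0.5698 FPKM in Shh-Stk11 (-1.78 ± 0.25). Cfap299 (1700007G11Rik) was at 4.898 and 5.082 FPKM in Control and at 2.23 and 1.518 FPKM in Shh-Stk11 (-1.39 ± 0.22), with the Shh-Stk11 libraries further apart than in the other genes of this group.

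Another 8 of the 17 were protein-coding genes that still had only a clone name in the annotation used. 1700007K13Rik is the gene known as Pierce1, whose product helps to dock dynein arms. It was at 8.885 and 8.379 FPKM in Control and at 2.497 and 2.671 FPKM in Shh-Stk11 (-1.70 ± 0.14). The other 7 are named without a role.

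1700024G13Rik had the second largest fall, from 8.411 and 10.31 FPKM in Control to 1.872 and 2.211 FPKM in Shh-Stk11 (-2.14 ± 0.18, adjusted p = 0.00441). 1700012B09Rik was at 10.83 and 12.32 FPKM in Control and at 2.849 and 2.959 FPKM in Shh-Stk11 (-1.96 ± 0.14, adjusted p = 0.00329). 1700016K19Rik, listed with the synonym Liat1, was at 15.26 and 17.91 FPKM in Control and at 4.901 and 5.265 FPKM in Shh-Stk11 (-1.68 ± 0.14). In all 3 the genotypes stood apart by several times the spread between libraries of a genotype, and the size of the fall was that of the named axoneme genes.

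The remaining 4 fell less. 1700001L19Rik was at 2.36 and 2.608 FPKM in Control and at 0.9706 and 0.7884 FPKM in Shh-Stk11 (-1.40 ± 0.22). 1700013F07Rik was at 4.028 and 5.02 FPKM in Control and at 1.853 and 1.564 FPKM in Shh-Stk11 (-1.35 ± 0.20). 1700094D03Rik was at 8.376 and 8.829 FPKM in Control and at 3.819 and 3.888 FPKM in Shh-Stk11 (-1.14 ± 0.14). In each of these 3 genes the genotypes differed by more than the libraries of a genotype did. 1700003E16Rik was at 5.252 and 4.513 FPKM in Control and at 2.266 and 2.185 FPKM in Shh-Stk11 (-1.10 ± 0.17). The last of the 17, Erich2 (4933404M02Rik), a glutamate-rich protein, was at 8.235 and 9.353 FPKM in Control and at 2.834 and 3.489 FPKM in Shh-Stk11 (-1.45 ± 0.17).

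**Figure D3:**
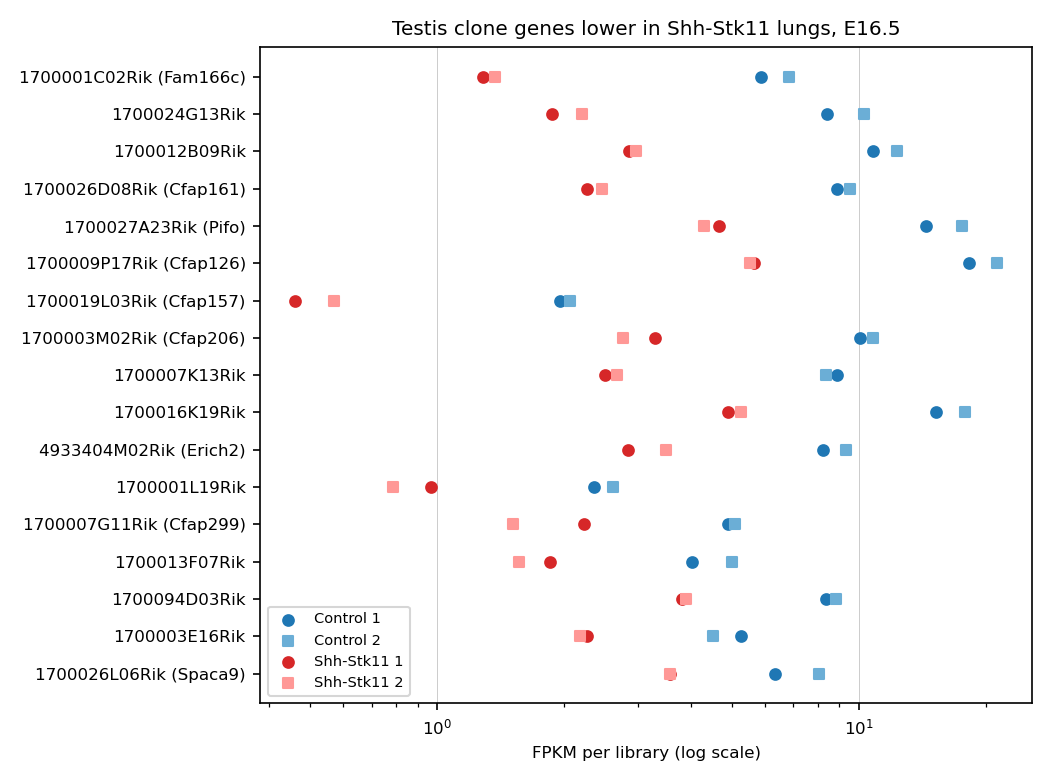
FPKM in each library (horizontal axis, log scale) of the 17 testis clone genes that were lower with a limma adjusted p under 0.05, ordered by fold change; blue points are Control and red points Shh-Stk11, with circles for library 1 and squares for library 2. In every gene both Shh-Stk11 values lie below both Control values, from Fam166c at 20.9% of Control to Spaca9 at 49.5%.

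Together the 17 genes kept between 20.9% and 49.5% of their Control level, with a median of 29.9%. Their means over the 4 libraries lay between 1.26 and 12.7 FPKM. Control 2 was above Control 1 in 15 of the 17, by a median of 0.18 on the log2 scale, against 0.02 over all genes tested. The number of calls moved with the library left out. With Control 1 left out 3 of the 17 were still called (1700012B09Rik, Cfap126 and Pifo), and with Control 2 left out 0 were, whereas 11 were without Shh-Stk11 1 and 11 without Shh-Stk11 2, the library that differed in sex. The fold changes moved little, with a median over the 17 of -1.80, -1.67, -1.66 and -1.73 in these 4 fits in the same order and -1.70 with all libraries. With a Control library left out, the spread was estimated from the Shh-Stk11 pair alone and the lone Control library was taken to vary like it.

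Many of the 17 transcripts were short. In the 16 with a gene model in GENCODE M21, the longest transcript had between 688 (1700012B09Rik) and 2868 bases (Cfap161), with a median of 987 bases, against 2384 bases over the clone genes and 2495 bases over the motile cilium list. Tested genes under 1100 bases had a median log2 fold change of -0.20 and 4.99% of them were lower with an adjusted p under 0.05, against -0.04 and 1.02% for longer ones. The 26 clone genes under 1100 bases, 10 of which were among the 17, had a median of -0.67, although 13 of the 26 lay above the limit, and the 143 longer ones had a median of -0.07 with 6 among the 17. When the trend with length and GC content was taken out, 11 of the 16 kept their call, and 1700001L19Rik, Cfap299, 1700013F07Rik, 1700003E16Rik and Spaca9 lost it, with log2 fold changes of -1.32, -1.30, -1.21, -0.91 and -0.75.

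A further 13 clone genes lay at or below the limit without an adjusted p under 0.05. In all 13 the genotypes did not overlap, as in 260 of the 321 genes (81%) of the whole table that lay there without a call. Their means, between 0.569 and 2.56 FPKM, were lower than those of most of the 17. Of these 13, 4 met the minimum through Control alone, namely 1700086L19Rik, Ccdc187 (4932418E24Rik), Fancd2os (4931417G12Rik) and 1700108F19Rik. 4930444P10Rik was at 2.06 and 3.539 FPKM in Control and at 0.9534 and 0.354 FPKM in Shh-Stk11, a log2 fold change of -2.02 ± 0.45 with an adjusted p of 0.0848. 1700028P14Rik was at 3.734 and 3.927 FPKM in Control and at 1.814 and 0.7735 FPKM in Shh-Stk11 (-1.60 ± 0.36, adjusted p = 0.0861). In these 2 genes the Shh-Stk11 libraries differed from each other by more than 2 times.

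The non-coding 1700086L19Rik was at 0.9869 and 1.092 FPKM in Control and at 0.3177 and 0.3441 FPKM in Shh-Stk11 (-1.40 ± 0.31, adjusted p = 0.0792), which corresponded to only 8.03 to 30.8 reads per library. Lrrc71 (4933430H15Rik), with leucine-rich repeats, was at 2.162 and 1.723 FPKM in Control and at 0.7159 and 0.6822 FPKM in Shh-Stk11 (-1.35 ± 0.24, adjusted p = 0.0504). Lrrc74b (4930451C15Rik), of the same kind, was at 2.147 and 2.562 FPKM in Control and at 1.04 and 0.7423 FPKM in Shh-Stk11 (-1.32 ± 0.25, adjusted p = 0.0566). Lrrc71 was also on the motile cilium list before clone genes were taken out of it. In this group 3 genes have a name of a cilium or centriole gene, namely Maats1 (4932425I24Rik), a radial spoke protein also called Cfap91, with -1.28, Ccdc187 (4932418E24Rik) with -1.22 and Cfap77 (1700101E01Rik) with -0.88. The other 5 were Ppp1r32 (4930579J09Rik), Fancd2os (4931417G12Rik), 4930444F02Rik, Smkr-ps (1700023L04Rik) and 1700108F19Rik, with log2 fold changes from -1.07 to -0.79. With robust variance moderation 5 of the 13 passed the threshold, which were 1700086L19Rik, Lrrc71, Lrrc74b, Maats1 and Ppp1r32. Of these, 1700086L19Rik met the minimum through Control alone.

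The limit passed through a continuous range. Just inside it lay 4930444F02Rik (-0.81), Smkr-ps (-0.80) and 1700108F19Rik (-0.79), and just outside lay 1700088E04Rik (-0.76, above the limit before rounding), Eva1c (4931408A02Rik, -0.72) and 4930432K21Rik (-0.70). 1700088E04Rik was at 15.05 and 12.48 FPKM in Control and at 7.608 and 8.582 FPKM in Shh-Stk11, with an adjusted p of 0.0631.

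**Figure D4:**
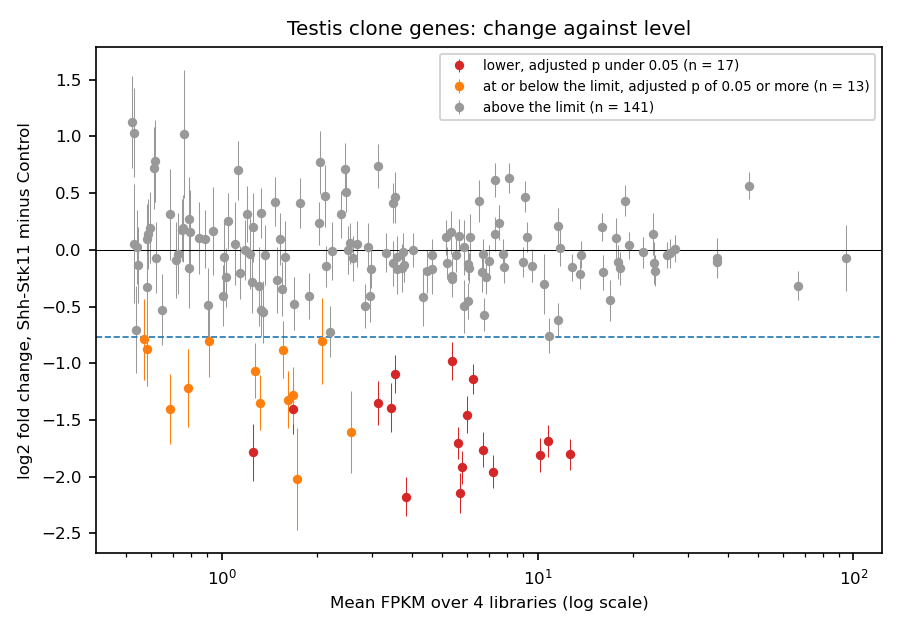
Log2 fold change of Shh-Stk11 minus Control (vertical axis, bars are the limma SE) against the mean FPKM over the 4 libraries (horizontal axis, log scale) for the 171 testis clone genes; the dashed line is the cilium limit of -0.76. The 17 lower genes (red) lie between 1.26 and 12.7 FPKM, the 13 that missed the test (orange) between 0.569 and 2.56 FPKM, and above 12.7 FPKM no clone gene reaches the limit.

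The counts by class of clone gene were as follows, beside the 1.29% of all genes tested that were lower and the 3.59% at or below the limit. At an unadjusted p under 0.05, 7.18% of all genes tested were lower and 8.04% higher. Of 19 with a cilium or centriole name, 8 were lower with an adjusted p under 0.05 and 11 lay at or below the limit, with a median log2 fold change of -0.98. Of 50 protein-coding genes that kept the clone name, 8 were lower and 10 lay at or below the limit, with a median of -0.15. Of 49 protein-coding genes with another name, 1 was lower and 5 lay at or below the limit, with a median of -0.05. Of 47 non-coding genes, limma called 0, with 2 lower and 2 higher at an unadjusted p under 0.05, and 4 lay at or below the limit. Spaca9, with a sperm name, is counted here under cilium or centriole for its place in the axoneme. Of the other 6 genes named for sperm or testis, limma called 0, with 1 lower and 1 higher at an unadjusted p under 0.05. The classes were assigned with results known, and the difference between them was not tested.

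The genes were also counted by the first digits of the name, which stand for a cDNA library. Over all genes tested, 1.29% were lower with an adjusted p under 0.05, and 7.18% were lower and 8.04% higher at an unadjusted p under 0.05. Of 78 genes whose name begins with 1700, 16 (20.5%) were lower with an adjusted p under 0.05, and 1 of the 26 that share the first 4 digits of 4933404M02Rik was (3.85%). Of the 47 that share those of 4930565N06Rik, limma called 0, with 6 (12.8%) lower and 3 (6.38%) higher at an unadjusted p under 0.05. Of the 7, 7 and 6 genes that share those of 4921536K21Rik, 4931417G12Rik and 4932425I24Rik, limma also called 0. At an unadjusted p under 0.05, 0, 2 and 2 of these were lower and 1, 0 and 1 higher. The difference between these shares was not tested.

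A cilium or centriole name did not always go with a fall. Ift43 (1700019E19Rik), a subunit of intraflagellar transport complex A, which primary cilia also use, was at 70.93 and 77.31 FPKM in Control and at 56.39 and 62.71 FPKM in Shh-Stk11. Its log2 fold change of -0.32 had an adjusted p of 0.316. Values near 0 were given by Tedc1 (4930427A07Rik, -0.16), of a tubulin complex of centrioles, by Ccsap (1700054N08Rik, -0.13), a protein of centrioles and spindles, and by Cep128 (4930534B04Rik, -0.07), a protein of centriole appendages. Ccdc181 (4930455F23Rik), a microtubule-binding protein of motile cilia and flagella, was at 13.12 and 15.04 FPKM in Control and at 8.395 and 9.946 FPKM in Shh-Stk11 (-0.61, adjusted p = 0.1). Cfap20dc (4930452B06Rik) gave -0.57 (adjusted p = 0.12).

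Values above 0 were seen for Cfap97 (4933411K20Rik) and Ccdc173 (4930578N16Rik). Cfap97 was at 7.158 and 8.109 FPKM in Control and at 10.96 and 10.19 FPKM in Shh-Stk11, without overlap (0.47, adjusted p = 0.161). Ccdc173, a protein of the doublet lumen, was at 1.326 and 2.283 FPKM in Control and at 2.443 and 2.485 FPKM in Shh-Stk11 (0.48, adjusted p = 0.481). Neither difference passed the test.

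The 6 genes of the sperm or testis class, which leaves out Spaca9, stayed above the limit. Catsperz (1700019N12Rik), a subunit of the calcium channel of sperm, was at 1.373 and 1.875 FPKM in Control and at 0.9034 and 1.258 FPKM in Shh-Stk11 (-0.55, adjusted p = 0.421). Tsacc (1700021C14Rik), a cochaperone of testis kinases, gave -0.45 (adjusted p = 0.245). Spata46 (1700015E13Rik), a sperm head protein, had the highest log2 fold change of the 171, 1.13 ± 0.41 with an adjusted p of 0.257, but its values of 0.4153 and 0.1878 FPKM in Control and 0.7688 and 0.7136 FPKM in Shh-Stk11 corresponded to only 3.33 to 13.3 reads. Next came 4930565N06Rik with 1.03 and 1700029I15Rik with 1.02, both under 1 FPKM on average and neither past the test.

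The 5 clone genes with the highest means did not pass the test in either direction. Tmem243 (4930420K17Rik), a membrane protein, was at 120 and 74.67 FPKM in Control and at 71.17 and 113.9 FPKM in Shh-Stk11 (-0.07). Its libraries differed within each genotype by more than the genotypes did. Oip5os1 (1700020I14Rik), a long non-coding RNA, was at 38.92 and 36.53 FPKM in Control and at 58.41 and 53.47 FPKM in Shh-Stk11, without overlap (0.57, adjusted p = 0.0777). 4933434E20Rik was at 36.87 and 40.21 FPKM in Control and at 33.54 and 37.95 FPKM in Shh-Stk11 (-0.11), and Garre1 (4931406P16Rik) was at 44.4 and 32.12 FPKM in Control and at 34.28 and 37.7 FPKM in Shh-Stk11 (-0.07). The other of the 5 was Ift43, given above.

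Of the 169 clone genes with a gene model, 55 had an exon that overlapped an exon of another gene in the table. The sources used here do not say whether strand was used in counting, so reads of such partners may not have been told apart. 4933439K11Rik lies opposite Cfap45 (listed as Ccdc19), a protein of the doublet lumen. Cfap45 was lower (-1.09, adjusted p = 0.0294), whereas 4933439K11Rik was not (0.06).

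Of the 17, 2 share a start region with a gene on the other strand. The start of 1700003E16Rik lies 7 bases from that of Wdr54, whose log2 fold change was -0.93 (adjusted p = 0.0875) beside the -1.10 of the clone gene. The start of Spaca9 lies 437 bases from that of Ak8, an adenylate kinase gene, which was lower as well (-1.68, adjusted p = 0.0186). For Lrrc74b, the neighbour P2rx6 at 638 bases gave -0.53 (adjusted p = 0.493).

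Defining genes of germ cells were near 0 in these lungs. Of 20 such genes, 5 (Tnp1, Tnp2, Prm2, Pgk2 and Tex101) were listed at 0 in every library and 2 (Sycp3 and Tssk6) reached the minimum, with a highest single value of 1.51 FPKM. Their summed level was 2.71 to 2.83 FPKM in Control and 3.44 to 3.47 FPKM in Shh-Stk11, of which Sycp3, a gene of the meiotic chromosome axis, made 0.5527 and 0.4551 FPKM in Control and 1.195 and 1.506 FPKM in Shh-Stk11. Without Sycp3 the sums were 2.16 and 2.37 FPKM in Control and 2.27 and 1.94 FPKM in Shh-Stk11, and the genotypes overlapped. The summed level of the motile cilium list, over its 151 genes in the table, was 999 to 1070 FPKM in Control and 508 to 529 FPKM in Shh-Stk11. Over 14 general epithelial genes the median log2 fold change was 0.23, with 0 called by limma and sums of 1300 to 1340 FPKM in Control and 1450 to 1650 FPKM in Shh-Stk11. Over 8 club cell genes the median was -0.18 with 2 lower past the test, whereas their sum was 1360 to 1500 FPKM in Control and 1600 to 2360 FPKM in Shh-Stk11. The highest single value among these genes was 1430 FPKM, so that 1 gene weighed heavily in a sum. Over 8 alveolar type 2 genes the median was 0.05 with 0 called by limma, and their sum was 16800 to 19000 FPKM in Control and 9300 to 13800 FPKM in Shh-Stk11. Here the highest single value was 17400 FPKM, so that 1 gene made most of a sum. Over 10 endothelial genes the median was -0.38, with sums of 975 to 1060 FPKM in Control and 741 to 798 FPKM in Shh-Stk11. Over 10 mesenchymal genes it was -0.19, with sums of 2480 to 2650 FPKM in Control and 2000 to 2210 FPKM in Shh-Stk11, and over 10 immune cell genes 0.12, with sums of 388 to 422 FPKM in Control and 275 to 513 FPKM in Shh-Stk11. Over 7 tested red blood cell genes it was -0.52. The sums over all 11 such genes in the table were 12700 to 13200 FPKM in Control and 8260 to 9720 FPKM in Shh-Stk11. The part of these differences in cell makeup in the values of the clone genes was not tested.

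Below the minimum, 76 clone genes had a mean between 0.1 and 0.5 FPKM, and limma called 0 of them in a fit that included genes from 0.1 FPKM, in which 1.15% of all genes were lower and 0.755% higher. In the fit from 0.5 FPKM, 7.18% of all genes were lower and 8.04% higher at an unadjusted p under 0.05. That share is not given for the wider fit, in which 12 of the 76 were lower and 5 higher at that threshold. Cfap61 (4930529M08Rik), a radial spoke gene, was among them, at 0.7945 and 0.584 FPKM in Control and at 0.1674 and 0.2664 FPKM in Shh-Stk11, a log2 fold change of -1.32 with an adjusted p of 0.103 in that fit. The row of Dnaaf6 (4930521A18Rik), a dynein arm assembly factor, was listed at 0 in every library.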

How the data were processed

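RNA-seq of whole E16.5 mouse lungs was analysed in 2 Control and 2 Shh-Stk11 libraries. The methods describe single-end sequencing of total RNA. The authors deposited FPKM values for each gene in each library. The submitters' processing notes name TopHat2 2.0.13 and Cufflinks 2.2.1, and both GRCm38 and mm9, without saying which was used for these libraries. The annotation and the use of strand were not given in the sources used here. No position is printed other than those of RefSeq promoters, which carry their own build. All 171 clone names matched RefSeq.

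Testing used limma 3.58.1 in R 4.3.3 (lmFit, eBayes with trend, 4.48 prior and 2 residual degrees of freedom) on log2(FPKM + 0.1), for the 13770 genes that averaged 0.5 FPKM or more, two-sided, with Benjamini-Hochberg adjustment over all of them and a threshold of 0.05. Fold changes are on that scale and are too small for low genes. With 2 against 2 libraries the smallest p of an exact permutation test is 0.333. The methods call the replicates independent biological ones, without saying whether lungs were pooled. The script was tested on simulated data.

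Read numbers were estimated from the low values, 76.2% of which, in 1721 genes, were whole multiples of a smallest step (within 0.02 of a step). They cover counting error only.

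The members, the gene lists, the classes by current name and the motifs were chosen with earlier results of these data known. Named by rule are the clone genes past the threshold, the 5 largest falls that missed it without overlap, the 5 highest means, the 3 nearest to the minimum on each side, Foxj1 and Stk11. All other genes in the text were picked with their values in view. Alternatives were pseudocounts of 1 and 0.01, minima of 0.1 and 5 FPKM and none, quantile and median-ratio scaling, eBayes without trend or robust, the replicate number as a block, each library left out, other limits and, chosen after seeing the data, a crossed block and removal of the trend with length and GC content. Figures were drawn with matplotlib 3.10.9. The value of a further overlapping neighbour is not reported here.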

Additional observations from a re-analysis of the deposited data

Results flagged for a closer look

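4930487H11Rik, a clone gene left out by the minimum, was listed at 0.1908 and 0.184 FPKM in Control and at 0.518 and 0.5246 FPKM in Shh-Stk11. Its Shh-Stk11 mean of 0.521 FPKM lay above both Control values in a row below the minimum of the comparison, which is why it is given here. In the wider fit from 0.1 FPKM its log2 fold change was 1.11 with a limma adjusted p of 0.119.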

How the results depend on the processing

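The numbers of clone genes that were lower and of those with a cilium-like fall, both 17, were 11 with a minimum of 5 FPKM (10 of the 11 tested among the 17, without Spaca9, and 1 other), 0 without a minimum, and 11 after removal of the trend with length and GC content. Leaving out a library gave 0 to 13 for both counts. With the replicate number as a block both were 0, with adjusted p-values of the 17 from 0.0505 to 0.154. The numbers are not said to mark litters, and same-numbered libraries deviated from their group means with a correlation of -0.11 across genes. With crossed numbers 23 were lower and 22 cilium-like. No clone gene was called higher except under robust eBayes, where 1 was (Shtn1, 4930506M07Rik, 0.63, adjusted p = 0.0481). The median of the motile cilium list was -0.77 with a pseudocount of 1. The other alternatives gave 14 to 23 lower genes, and a limit at the list's median or at -1 gave 14 and 16 cilium-like ones. All 17 log2 fold changes were below 0 under every alternative in which the gene was tested. The causes were not tested. Scalings moved the median of all genes by less than 0.1. The 13 genes at or below the limit that missed the test all had means under 3 FPKM.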
